A study of Mus musculus with 14 samples.

Results

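Expression of Myc and 39 ribosome biogenesis factors, 40 genes in all, was followed in RNA-seq of group 2 innate lymphoid cells (ILC2s) from mouse lung. The genes were taken from a fixed list of names and matched by gene symbol in both tables of the series, where all 40 were found among 53278 genes. The list holds Myc, 3 subunits of RNA polymerase I, 6 proteins of small nucleolar ribonucleoproteins (snoRNPs), 4 nucleolar chaperones and scaffold proteins, 15 factors of the small ribosomal subunit and 11 factors of the large subunit. All 40 also passed the filter on low counts in both experiments, so none was lost from the tests.

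The data comprised 14 libraries of ILC2s from female mice in 2 experiments. The labels and the design text give individual mice, 1 for each library, whereas legends of the figures that hold these data among other assays describe sorted samples as pooled from a pair of animals. In the stimulation experiment, 4 libraries came from unstimulated B6 ILC2s and 4 from B6 ILC2s that had 24 h of IL-33 (20 ng/mL). In the Blimp-1 experiment, 3 libraries came from ControlIL7RaCre mice (Control) and 3 from Blimp-1IL7RaCre mice (Blimp-1-deficient), and all 6 cultures had 72 h of IL-33 plus IL-25 (20 ng/mL of either). Blimp-1IL7RaCre mice lose Prdm1, the gene for the repressor Blimp-1, wherever Cre driven from the Il7r gene has been active, which covers ILC subsets and other lymphocytes and not ILC2s alone. Cells were sorted as live, lineage-, CD90.2+ and CD3-. Mice of the Blimp-1 experiment were matched for age. The RNA-seq methods name IL-2 for the 72 h cultures alone, whereas the general culture methods add it to cultures of sorted ILC2s. The labels do not name IL-2. By the design text and the methods the unstimulated cells were also cultured for 24 h, without IL-33, although the study's results call them ex vivo and their labels give no time.

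Ribosomes are assembled in the nucleolus. RNA polymerase I transcribes the long ribosomal RNA precursor, snoRNPs guide its methylation and pseudouridylation, and assembly factors then cut, fold and export the small and the large subunit. Myc, a basic helix-loop-helix transcription factor that binds DNA together with Max at the E-box CACGTG, is known as a broad activator of this programme in lymphocytes that are leaving rest. Growth and secretion by activated lymphocytes depend on new ribosomes, and activated ILC2s are strong producers of IL-5 and IL-13.

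Because Myc-Max binds the E-box, the promoter windows of the members were searched for the letters CACGTG, which read the same on both strands. RefSeq windows of GRCm38.p6, from 250 bases before to 50 bases after the start site, were at hand for 34 of the 40 genes, and 9 of these held the motif (26.5%). Among all 27025 genes with a window the share was 8.09%, and among the 10663 of them tested in the stimulation experiment it was 11.4%. The 9 genes were Imp4, Nop2, Utp4, Ltv1, Pes1, Tsr1, Wdr43, Utp20 and Mybbp1a. In Utp20 and Mybbp1a the motif lay too near the end of the window to show it with its flanks. The other 7 sites follow with 12 bases on each side, on the strand of the gene from 5′ to 3′, with the motif in capitals.
Imp4, chr1:34439696-34439725 (+), motif from base -121: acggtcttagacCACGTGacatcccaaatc
Nop2, chr6:125131811-125131840 (+), motif from base -60: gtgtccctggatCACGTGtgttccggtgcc
Utp4, chr8:106893643-106893672 (+), motif from base 16: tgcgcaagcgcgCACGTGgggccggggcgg
Ltv1, chr10:13193092-13193121 (-), motif from base 29: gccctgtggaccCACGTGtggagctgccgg
Pes1, chr11:3963965-3963994 (+), motif from base 3: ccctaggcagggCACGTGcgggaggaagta
Tsr1, chr11:74898092-74898121 (+), motif from base 25: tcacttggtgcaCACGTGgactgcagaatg
Wdr43, chr17:71616220-71616249 (+), motif from base 18: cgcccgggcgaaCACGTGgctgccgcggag
Bases are counted from the start site, with negative numbers before it, so the motif stands upstream of the gene in Imp4 and Nop2 and inside the first bases of the transcript in the other 5.

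To show a whole upstream stretch of such a promoter, the 250 bases before the start site of Nop2, an rRNA methyltransferase of the large subunit, are given with the motif in capitals.
Nop2, chr6:125131633-125131882 (+): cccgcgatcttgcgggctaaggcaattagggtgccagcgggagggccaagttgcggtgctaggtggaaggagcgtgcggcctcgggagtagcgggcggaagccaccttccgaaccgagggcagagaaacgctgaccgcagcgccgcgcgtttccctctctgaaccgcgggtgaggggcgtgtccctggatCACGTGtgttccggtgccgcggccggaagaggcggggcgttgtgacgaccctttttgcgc
These matches describe letters in a window and not binding. A further feature that the choice of genes did not use was the hosting of small nucleolar RNAs (snoRNAs). A snoRNA was counted as hosted where it lay within the bounds of a gene on the same strand, in intron or exon. In the GENCODE annotation 7 of the 40 genes hosted at least 1 snoRNA (17.5%), against 237 of 13012 protein-coding genes tested in the stimulation experiment (1.82%). The hosts were Nop56 with 5 snoRNAs, Nop58 with 4, Ncl, Wdr43 and Gnl3 with 3 each, Tsr1 with 2 and Dkc1 with 1.

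The libraries were deep apart from 2 that stood apart from their groups. Total counts lay between 21939818 and 32849428 in the other 7 libraries of the stimulation experiment and between 60715362 and 76448945 in the other 5 of the Blimp-1 experiment. IL-33 stimulated replicate 3 held 10470125 counts, of which 4.12% fell on 7 loci derived from ribosomal RNA, against 0.258% to 0.314% in the other stimulated libraries. Control replicate 2 held 13570188 counts, of which 76.8% fell on those loci, against 0.262% and 0.941% in Controls 1 and 3. Counts and medians over the 40 genes are given with and without the library that stood apart. ILC2 markers were present in every group: Gata3 averaged 1016 CPM (TMM-normalized counts scaled to 1000000 per library) in unstimulated cells and 632 after IL-33, and Il5 averaged 544 and 17147 CPM. In Controls and Blimp-1-deficient cells Gata3 averaged 643 and 508 CPM, and Il5 6053 and 5915 CPM. At an adjusted p below 0.05, 4 of 14 ILC2 markers were higher and 8 lower after IL-33 (16.2% and 16.1% of all genes). In the Blimp-1 experiment 0 passed over all libraries. Without Control 2, 4 were higher and 5 lower (8.25% and 5.72% of all genes). Thy1, which encodes the CD90 antigen of the sort, averaged 745 CPM in unstimulated cells, 129.9 CPM after IL-33, 129.8 CPM in Controls and 191 CPM in Blimp-1-deficient cells. Prdm1 ranged over 74.0 to 92.8 CPM among Controls and 11.4 to 14.6 CPM among Blimp-1-deficient libraries, so the labels held in all 6 libraries.

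After IL-33 the whole group of genes was higher. The summed level of the 40 genes was 4754 to 4943 CPM in the 4 unstimulated libraries, and 10369.7, 11258, 7760.1 and 11001 CPM in IL-33 stimulated replicates 1 to 4. Every stimulated library lay above every unstimulated library, and replicate 3 was the lowest of its group. The ratio of the group means was 2.07, or 2.23 without replicate 3. As a share of raw counts the genes took 0.501% to 0.527% of each unstimulated library and 0.752% to 1.06% of each stimulated library. Bulk values are shares of a library, so more expressing cells and more RNA per cell cannot be told apart.

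**Figure D1:**
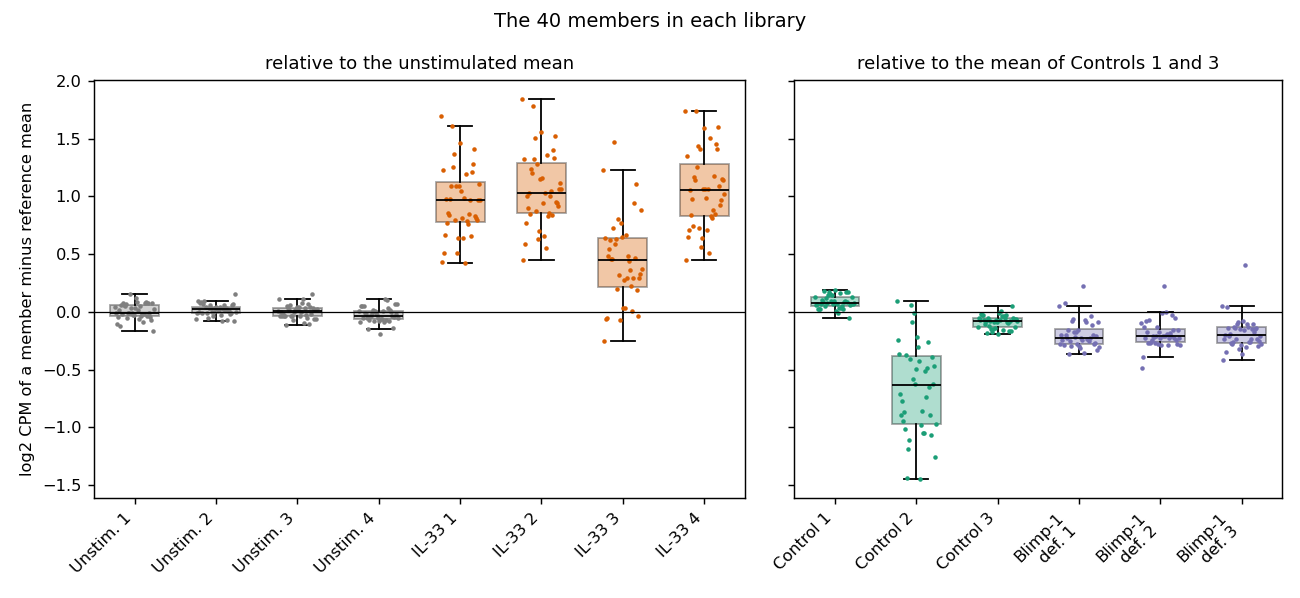
Each point is 1 of the 40 genes in 1 library, plotted as log2 CPM minus the mean log2 CPM of the reference libraries (left, the 4 unstimulated libraries; right, Controls 1 and 3). Boxes span the middle quartiles with the median as a line and whiskers to the last point within 1.5 box lengths; the stimulated libraries sit above 0 with replicate 3 lowest, and Control 2 sits far below its group.

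With edgeR's quasi-likelihood test, 38 of the 40 genes rose at an adjusted p below 0.05, where 16.2% of all 15466 genes tested rose, and all 40 log2 fold changes were above 0. With limma on TPM the count was 19 to 24 of 40, depending on pseudocount and rescaling. The share of all genes called on those scales was not taken. The median log2 fold change there was 0.50 to 0.52, against -0.29 to -0.23 over all genes. In edgeR the median log2 fold change over the 40 genes was 0.88, against 0.058 over all genes tested, and the range ran from 0.30 to 1.66. Polr1a and Polr1c did not pass. In 33 of the 40 genes every stimulated library lay above every unstimulated library, a pattern found in 17% of all genes tested. The other 7 (Polr1a, Polr1c, Fbl, Heatr1, Imp4, Bop1 and Noc2l) overlapped only through replicate 3. How many of all genes were separated without that library was not counted. Without replicate 3, 40 of 40 genes rose, where 27.5% of all genes rose, with a median of 1.014 against -0.055 over all genes. Replicate 3 was the lowest stimulated library in 40 of 40 genes, and in 55.4% of all genes tested.

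Myc was among the genes that rose most. Its level was 79.2, 73.3, 77.3 and 77.3 CPM in unstimulated replicates 1 to 4 and 248.7, 276, 179 and 257 CPM in IL-33 stimulated replicates 1 to 4. The groups did not overlap, and the lowest stimulated value, in replicate 3, was still well above the highest unstimulated value. The log2 fold change was 1.65 ± 0.13 (SE), a 3.13-fold rise with an adjusted p of 7.46e-05, and 1.76 ± 0.055 (SE) without replicate 3. Per transcript length, Myc moved from 97.8 ± 3.13 TPM (SD, n = 4) to 245 ± 50.1 TPM (SD, n = 4). Those means stood below the means of Npm1, Ncl, Ddx21, Nhp2 and Mybbp1a in both groups.

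**Figure D2:**
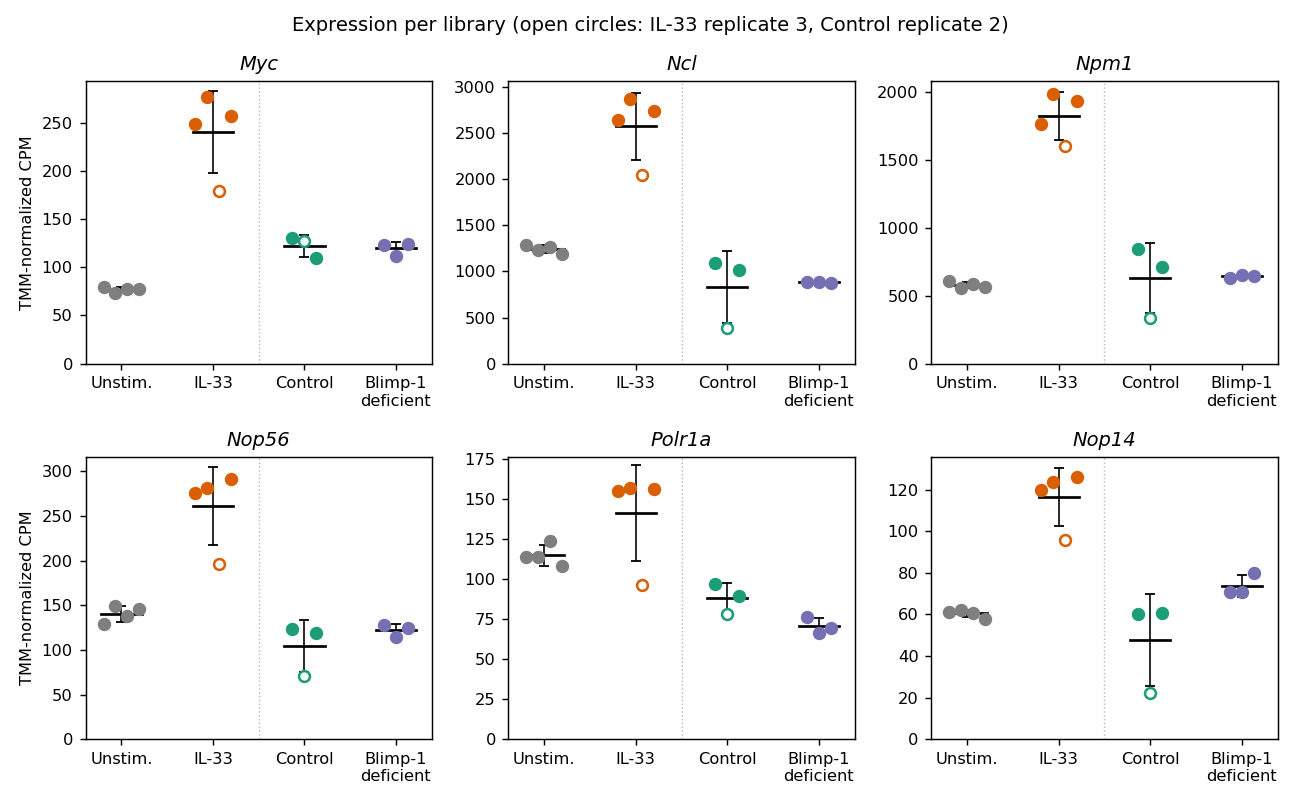
CPM of Myc, Ncl, Npm1, Nop56, Polr1a and Nop14 in each of the 14 libraries, with the mean as a bar and the SD as whiskers; open circles mark IL-33 replicate 3 and Control replicate 2. For Myc the stimulated libraries lie at 179 to 276 CPM and the unstimulated at 73.3 to 79.2 CPM, while Control and Blimp-1-deficient libraries overlap.

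The RNA polymerase I subunits differed among themselves. Polr1b, which forms the catalytic core together with Polr1a, lay at 37.5, 42.9, 39.2 and 41.5 CPM in unstimulated libraries and at 94.6, 101, 62.7 and 103 CPM after IL-33. It rose in all 4 stimulated libraries, with a log2 fold change of 1.16 ± 0.15 (SE) and an adjusted p of 0.000843. Polr1a, the largest subunit, lay at 114, 114, 124 and 108 CPM and at 155, 157, 96.2 and 157 CPM. Its replicate 3 fell below all 4 unstimulated libraries, while the other 3 stimulated libraries lay above them. The log2 fold change was 0.30 ± 0.15 (SE) (adjusted p = 0.171), and 0.44 ± 0.054 (SE) without replicate 3 (adjusted p = 7.56e-05). Polr1c, which is shared with RNA polymerase III, lay at 33.1, 34.2, 34.0 and 35.4 CPM and at 48.6, 51.2, 32.7 and 53.4 CPM, again with replicate 3 below the unstimulated range. Its log2 fold change was 0.45 ± 0.15 (SE) (adjusted p = 0.0507), and 0.58 ± 0.057 (SE) without replicate 3 (adjusted p = 1.51e-05). On the TPM scale the sign of Polr1a turned, with a log2 fold change of -0.060 on log2(TPM + 1), where the median of all genes was -0.25.

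All 6 snoRNP proteins rose, by log2 fold changes of 0.56 to 0.99. Nhp2, a core protein of the H/ACA particles that guide pseudouridylation, lay at 63.3, 62.3, 62.7 and 54.7 CPM in unstimulated libraries and at 119.6, 143, 83.4 and 136 CPM after IL-33. The groups were separate, and the log2 fold change was 0.99 ± 0.16 (SE) with an adjusted p of 0.00231. Its H/ACA partners Dkc1, the pseudouridine synthase, and Gar1 rose by 0.88 and 0.73 on the log2 scale. Fbl, the methyltransferase of the C/D particles, lay at 96.7, 101, 93.3 and 92.0 CPM and at 152, 163, 91.9 and 156 CPM, so replicate 3 was below every unstimulated library. Its log2 fold change was 0.56 ± 0.17 (SE) (adjusted p = 0.0356), the smallest of the snoRNP proteins, and 0.72 ± 0.052 (SE) without replicate 3. The call for Fbl was lost in 10 of 19 alternatives, at adjusted p up to 0.544, among them TPM, library size alone, no filter, the replicate block and leaving out unstimulated replicate 3 or stimulated replicate 1, 2 or 4. The C/D core proteins Nop56 and Nop58 rose by 0.89 and 0.77. Reads of Fbl and Nop56 are uncertain in part, since 17.7% and 14.4% of the 75-base stretches in their exons also occur in another annotated gene.

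The 4 nucleolar chaperones and scaffold proteins all rose and included Npm1 and Ncl, the highest of the 40 genes per transcript length. Npm1, nucleophosmin, a histone and ribosomal protein chaperone, lay at 606, 556, 583 and 562 CPM in unstimulated libraries and at 1763, 1986, 1602 and 1932 CPM after IL-33. Over all libraries this was the largest rise of the 40 genes, ahead of Myc by less than the errors, at 1.66 ± 0.093 (SE) on the log2 scale or 3.16-fold, with an adjusted p of 1.71e-05. Its replicate 3 lay closer to the other stimulated libraries than it did for Myc. Ncl, nucleolin, an RNA-binding protein of the rRNA precursor, lay at 1281, 1227, 1268 and 1182 CPM and at 2635, 2859.9, 2044 and 2740.3 CPM. Its log2 fold change of 1.05 ± 0.12 (SE), adjusted p 0.000415, was the smallest of the 4. Mybbp1a rose by 1.28, and Nolc1, a chaperone of snoRNPs, by 1.14. Per transcript length, Npm1 reached 749 ± 15.2 TPM in unstimulated cells and 1885 ± 226 TPM after IL-33, and Ncl 421 ± 11.3 TPM and 697 ± 119 TPM (SD, n = 4 each). At the other end stood Wdr12, at 7.95 ± 0.317 TPM and 15.2 ± 2.54 TPM. For Npm1, 18.1% of its 75-base stretches occur in other annotated genes, mainly the pseudogene Gm14681.

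All 15 small subunit factors rose, with log2 fold changes of 0.45 to 1.36 and a median of 0.77. Rrp9, a protein of the U3 snoRNP that acts in the first cuts of the precursor, lay at 35.3, 37.2, 37.1 and 34.8 CPM in unstimulated libraries and at 99.3, 106, 56.4 and 109 CPM after IL-33. The groups were separate, although replicate 3 lay nearer to the unstimulated than to the other stimulated libraries, and the log2 fold change was 1.36 ± 0.19 (SE) (adjusted p = 0.00125). Imp3, another U3 partner and the small subunit factor with the highest TPM, lay at 40.03, 37.4, 37.9 and 32.1 CPM and at 64.7, 70.7, 44.5 and 72.9 CPM. It rose by 0.78 ± 0.16 (SE) with an adjusted p of 0.00674. Ddx10, a DEAD-box helicase, lay at 54.4, 55.9, 60.0 and 57.1 CPM and at 76.3, 83.4, 69.6 and 80.9 CPM. Here replicate 3 stood near its group, and the small rise of 0.45 ± 0.073 (SE) had an adjusted p of 0.00243. Rcl1 and Utp4 rose by 1.184 and 1.16, next after Rrp9. Wdr43, Nop14, Rrp12, Nob1, Tsr1, Ltv1, Utp20, Imp4, Utp15 and Heatr1 followed, with log2 fold changes of 0.51 to 1.03. For Tsr1, 32.3% of exon bases overlap Srr on the opposite strand, and the strand setting of the counting is not given in the sources used here, so its reads may hold those of Srr.

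All 11 large subunit factors rose, with log2 fold changes of 0.67 to 1.42 and a median of 0.88. Nop16 lay at 36.5, 34.4, 34.2 and 33.8 CPM in unstimulated libraries and at 92.5, 99.6, 74.96 and 105 CPM after IL-33. All 4 stimulated values were far above the narrow unstimulated range, and the log2 fold change was 1.42 ± 0.11 (SE) (adjusted p = 6.47e-05). Ddx21, a nucleolar RNA helicase with the highest TPM of this group, lay at 310.1, 305, 309 and 293 CPM and at 594, 636, 394 and 617 CPM, a rise of 0.88 ± 0.15 (SE) with an adjusted p of 0.00255. Pes1, Bop1 and Wdr12 form a complex that matures the large subunit rRNA, and their log2 fold changes were 0.67, 0.87 and 1.26. Pes1 lay at 98.8, 89.4, 98.5 and 89.0 CPM and at 147, 167, 115 and 169 CPM, the smallest rise here (adjusted p = 0.00424). Nop2, whose promoter is shown with its E-box, lay at 72.8, 75.1, 76.9 and 74.6 CPM and at 182, 189, 103 and 199.6 CPM, separate groups with a log2 fold change of 1.17 ± 0.19 (SE) (adjusted p = 0.00231). Gnl3, Nip7, Rrs1, Noc3l and Noc2l rose by 1.06, 0.91, 0.80, 0.77 and 0.71. In Pes1 and Noc2l, 12.4% and 18.3% of the 75-base stretches are shared with other genes.

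**Figure D3:**
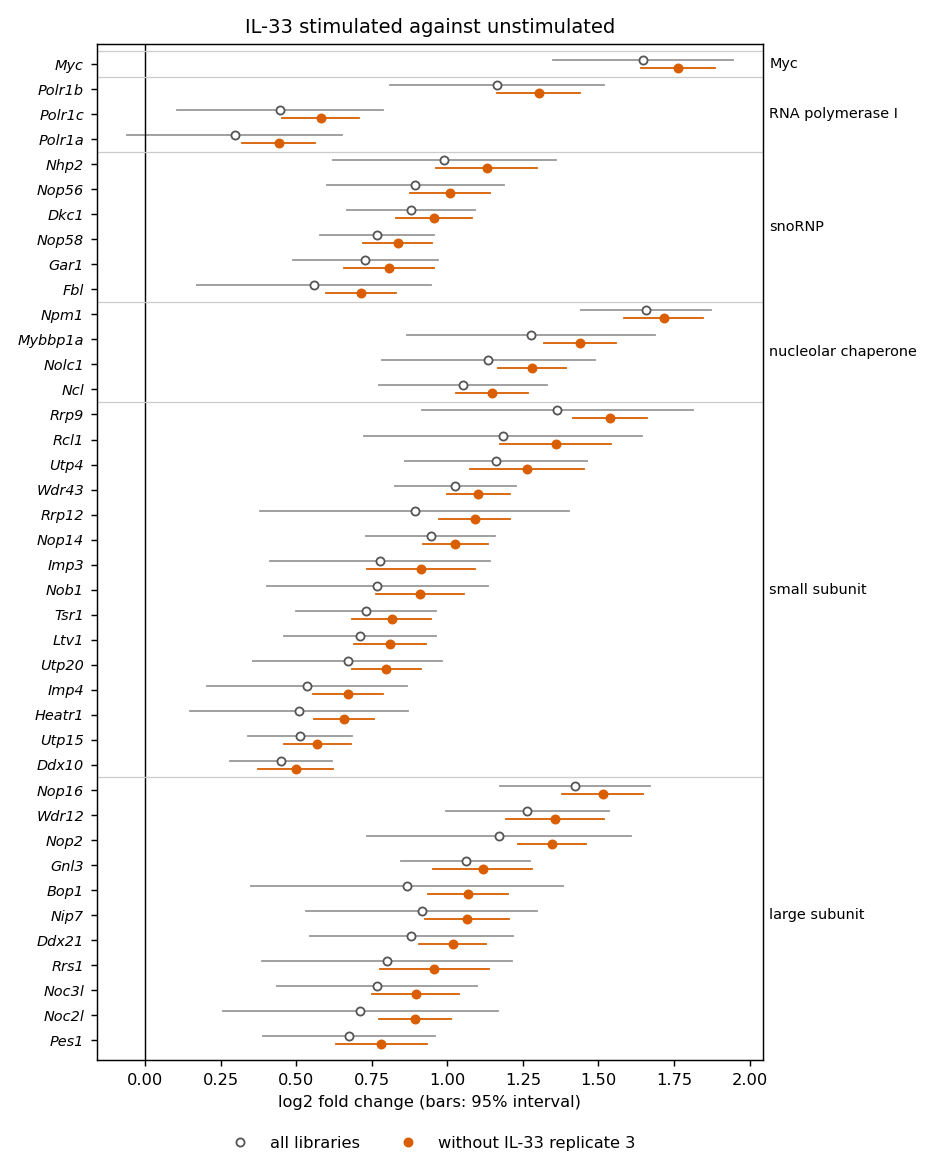
Log2 fold change of each of the 40 genes after IL-33 against unstimulated (points) with its 95% interval (bars), by role, over all 8 libraries (open) and without IL-33 replicate 3 (filled). Over all libraries Polr1a at 0.30 has an interval that reaches below 0, and without replicate 3 the range is 0.44 to 1.76.

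Genes with the E-box did not have the larger median rise. The median log2 fold change after IL-33 was 0.73 over the 9 genes with CACGTG in the window and 0.88 over the 25 without it. Over all genes tested the medians were 0.061 with the motif and 0.035 without it. These medians are descriptions and were not tested.

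Other genes of the same pathway were read from lists, by counts and medians. Of 115 other ribosome biogenesis factors, 72 rose and 1 fell, where 16.2% of all genes tested rose and 16.1% fell. Their median log2 fold change was 0.60. Without replicate 3 the counts were 107 and 1 with a median of 0.69, where 27.5% of all genes rose and 29.7% fell. By stage, 7 of 9 other snoRNP factors rose, 28 of 40 for the small subunit, 33 of 54 for the large subunit, and 4 of 12 for RNA polymerase I. For all genes tested the share was 16.2%. Without replicate 3 these counts were 9, 40, 51 and 7 in the same order, where 27.5% of all genes rose. The factor that fell was Ubtf, which places RNA polymerase I on its promoter, at 259 ± 3.47 CPM (SD, n = 4) unstimulated and 204 ± 31.6 CPM (SD, n = 4) after IL-33. Its log2 fold change was -0.34 ± 0.11 (SE) with an adjusted p of 0.0481, and -0.24 without replicate 3. This call was not firm: in 7 of 19 alternatives it was lost, at adjusted p of 0.0514 to 0.143, namely with no filter on low counts, with the replicate block, and without unstimulated replicate 2 or 3 or stimulated replicate 1, 2 or 4. On log2(TPM + 1) the log2 fold change was -0.68, where the median of all genes was -0.25. Genes for cytosolic ribosomal proteins moved less. Of 86 tested, 21 rose, where 16.2% of all genes tested rose, with a median of 0.36 and 84 log2 fold changes above 0. Without replicate 3, 78 rose, where 27.5% of all genes rose, with a median of 0.48.

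Within the Myc network the genes moved in both directions. Of 12 tested, Mycl, Max, Mxd1, Mlx and Mlxip rose and Mycn, Mxd3 and Mnt fell, where 16.2% of all genes rose and 16.1% fell. Without replicate 3, 5 rose and 3 fell, where 27.5% of all genes rose and 29.7% fell. Mycn, a paralog of Myc, was at 23.1 ± 2.16 CPM unstimulated and 2.56 ± 0.427 CPM after IL-33 (SD, n = 4 each), a log2 fold change of -3.18 ± 0.17 (SE) with an adjusted p of 1.38e-05. Mxd1 and Mxd3 encode Max partners that oppose Myc, and they moved apart. Mxd1 rose from 40.4 ± 7.86 CPM to 162 ± 32.8 CPM, a log2 fold change of 2.01 ± 0.19 (SE). Mxd3 fell from 49.2 ± 1.91 CPM to 10.4 ± 2.96 CPM, a log2 fold change of -2.24 ± 0.21 (SE). Max, the shared partner, was at 78.4 ± 4.40 CPM and 114 ± 7.54 CPM, with a log2 fold change of 0.54 ± 0.071 (SE) (adjusted p = 0.000838).

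Of 17 known Myc targets outside the ribosome, 13 rose, where 16.2% of all genes tested rose, with a median of 0.64 and 16 log2 fold changes above 0. Without replicate 3, 15 rose, where 27.5% of all genes rose, with a median of 0.77. The largest rises were in polyamine synthesis. Odc1, ornithine decarboxylase, went from 266 ± 18.2 CPM to 1401 ± 257 CPM (SD, n = 4 each), a log2 fold change of 2.39 ± 0.14 (SE) with an adjusted p of 2.36e-05. Srm, spermidine synthase, went from 58.5 ± 3.66 CPM to 214 ± 52.6 CPM, a log2 fold change of 1.87 ± 0.18 (SE) with an adjusted p of 0.000203. Of 22 cell cycle genes, 10 fell, where 16.1% of all genes fell, and 20 had log2 fold changes below 0, with a median of -0.47. Without replicate 3, Rrm2 and Cdc6 rose and 15 fell, where 29.7% of all genes fell.

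Markers of other cells moved between the same groups. The summed level of 10 T cell markers was 191 to 216 CPM in unstimulated libraries and 50.3 to 74.5 CPM after IL-33, with Trbc2 as the highest gene. That of 5 mast cell and basophil markers was 7.12 to 14.7 CPM and 0 to 0.354 CPM, and 3 of the 5 had 3 counts or fewer in every stimulated library. The 7 epithelial and stromal markers summed to 397 to 626 CPM and 219 to 403 CPM, and the 8 myeloid markers to 91.3 to 204 CPM and 40.8 to 127 CPM. The 5 B cell markers summed to 9.85 to 12.1 CPM and 14.6 to 17.8 CPM, and the 5 NK cell markers to at most 2.29 CPM in any library of the experiment. The part of these cells in the results was not tested.

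In the Blimp-1 experiment the question was whether loss of Prdm1 altered these genes in activated ILC2s, and Myc did not differ. Myc lay at 130.3, 127 and 109 CPM in Controls 1 to 3 and at 123, 111 and 124 CPM in Blimp-1-deficient replicates 1 to 3. The values of the groups were interleaved, Control 2 included. The log2 fold change was -0.033 ± 0.11 (SE) with a 95% interval of -0.29 to 0.22 and an adjusted p of 0.953, and without Control 2 it was 0.0056 ± 0.093 (SE) with an interval of -0.21 to 0.22. Per transcript length, Myc was at 168 ± 16.1 TPM (SD, n = 2) in Controls 1 and 3 and at 177 ± 17.5 TPM (SD, n = 3) in Blimp-1-deficient cells. The 2 experiments used separate tables and cultures, so their levels were not compared by a test.

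The comparison of the other genes changed with Control 2. The summed level of the 40 genes was 5133, 2735 and 4558 CPM in Controls 1 to 3 and 4151 to 4183 CPM in Blimp-1-deficient libraries. The Blimp-1-deficient libraries lay close together, below Controls 1 and 3 and above Control 2. Control 2 was the lowest Control in 36 of 40 genes, the exceptions being Myc, Utp20, Utp4 and Heatr1, and in 50.2% of all genes tested. The ratio of the group means was 1.007 over all libraries and 0.861 without Control 2. Control 2 gave 11228 counts on the 40 genes, against 425674 and 431467 in Controls 1 and 3, so its values also carry the larger counting error.

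Over all 6 libraries edgeR called 0 of the 40 genes higher and 0 lower, where 0.45% of all 17335 genes tested were higher and 0.306% lower. At an unadjusted p below 0.05 the count was 2 of 40, Polr1a and Heatr1, where 11.9% of all genes tested reached that level, DESeq2 also called 0, and voom with sample weights called 1 lower. The median log2 fold change was -0.022, against -0.018 over all genes tested, and single values ran from -0.32 in Polr1a to 0.59 in Nop14. Without Control 2, 1 gene was higher and 7 were lower, where 8.25% of 17968 genes were higher and 5.72% lower, and 24 of 40 had an unadjusted p below 0.05, where 31.2% of all genes did. The median was then -0.19 against 0.013 over all genes, and 37 of 40 log2 fold changes were below 0. All 3 Blimp-1-deficient libraries lay below Controls 1 and 3 in 29 of the 40 genes, which held for 26.7% of all genes tested. They lay above both in 1 gene, Nop14, which held for 24.4% of all genes tested. With Control 2 included, the groups were separate in 4 of the 40 genes as lower and in 1 as higher. The share of all genes separate in that setting was not counted.

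**Figure D4:**
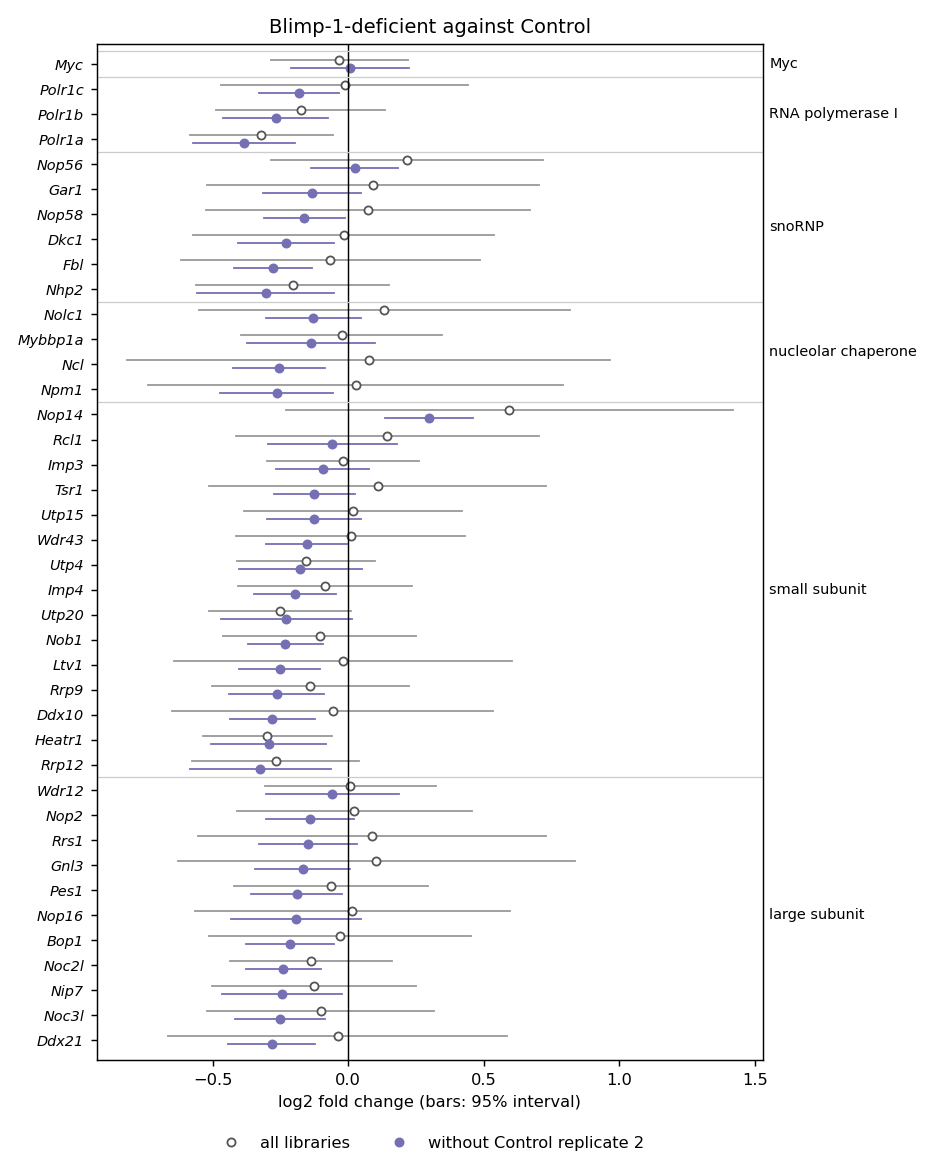
Log2 fold change of each of the 40 genes in Blimp-1-deficient against Control ILC2s (points) with its 95% interval (bars), by role, over all 6 libraries (open) and without Control replicate 2 (filled). Without Control 2 the points move to the left of 0 apart from Myc, Nop56 and Nop14, and the median moves from -0.022 to -0.19.

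The genes that were lower without Control 2 came from several stages. Polr1a lay at 96.8, 78.4 and 89.4 CPM in Controls 1 to 3 and at 76.5, 66.4 and 69.6 CPM in Blimp-1-deficient libraries, so the groups did not overlap even with Control 2. Its log2 fold change was -0.32 ± 0.11 (SE) over all libraries (adjusted p = 0.314) and -0.38 ± 0.080 (SE) without Control 2 (adjusted p = 0.0226). Ddx21 lay at 321, 155 and 289 CPM and at 247, 249.8 and 251 CPM. Its Blimp-1-deficient values were within a few CPM of each other and below Controls 1 and 3, with a log2 fold change of -0.038 ± 0.26 (SE) over all libraries and -0.28 ± 0.068 (SE) without Control 2 (adjusted p = 0.037). Ltv1, a factor in late assembly and export of the small subunit, lay at 44.9, 20.9 and 41.9 CPM and at 36.8, 35.6 and 36.3 CPM, and its log2 fold change moved from -0.019 ± 0.26 (SE) to -0.25 ± 0.063 (SE) (adjusted p = 0.0397). Fbl, Ddx10, Noc2l and Nob1, the endonuclease that finishes the small subunit rRNA, were the other 4, with log2 fold changes of -0.28, -0.28, -0.24 and -0.23 without Control 2.

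Nop14, a protein of the early small subunit particle, went the other way. It lay at 60.0, 22.2 and 60.9 CPM for Controls 1 to 3 and at 70.7, 70.7 and 80.0 CPM in Blimp-1-deficient libraries, with all 3 above all Controls. The log2 fold change was 0.59 ± 0.34 (SE) over all libraries (adjusted p = 0.584) and 0.30 ± 0.069 (SE) without Control 2 (adjusted p = 0.0321). Without Control 2 both the fold and its error were smaller. In Nop14, 5.27% of exon bases overlap Gm15522 on the opposite strand.

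The remaining genes did not pass with or without Control 2. Polr1c had log2 fold changes of -0.013 over all libraries and -0.18 without Control 2, and Nhp2 of -0.21 and -0.30. Npm1 lay at 841, 338 and 710.1 CPM for Controls 1 to 3 and at 628, 653 and 646 CPM for Blimp-1-deficient replicates 1 to 3, and its log2 fold change was 0.027 ± 0.32 (SE) over all libraries and -0.26 ± 0.089 (SE) without Control 2 (adjusted p = 0.0934). In Npm1, as in most of the 40 genes, Control 2 lay far below the other 5 libraries. Nolc1 was at 0.13 and -0.13, Mybbp1a at -0.024 and -0.14, and Gnl3, a nucleolar GTPase, at 0.10 and -0.17. Nop56, with 123, 71.1 and 119 CPM for Controls 1 to 3 and 128, 114 and 125 CPM for Blimp-1-deficient replicates 1 to 3, had log2 fold changes of 0.22 and 0.023. Imp3 was at -0.020 and -0.095. Heatr1, of the early small subunit particle, lay at 123, 111 and 101 CPM and at 91.5, 91.4 and 88.6 CPM, below every Control, with log2 fold changes of -0.30 ± 0.10 (SE) (adjusted p = 0.3) and -0.29 ± 0.090 (SE) without Control 2 (adjusted p = 0.0717).

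The values in this experiment also moved with the scaling of the libraries, which shifted all genes. Scaled by library size alone, the median log2 fold change of the 40 genes was 0.33 and that of all genes 0.45, and on log2(TPM + 1) they were 1.54 and 1.28. Relative to the median of all genes the 40 genes were thus lower on the scale of library size and higher on the TPM scale. Other ribosome biogenesis factors gave 0 higher and 0 lower of 115 over all libraries, with 5 at an unadjusted p below 0.05 (11.9% of all genes). Without Control 2 they gave 0 higher and 11 lower with a median of -0.17, and 51 of 115 had an unadjusted p below 0.05 (31.2% of all genes). Of 86 genes for ribosomal proteins without Control 2, Rpl39l was higher and Rpl14, Rpl30 and Rpl6l lower. These counts were below the shares of 8.25% and 5.72% over all genes. Their median was -0.20, 83 log2 fold changes were below 0, and 43 had an unadjusted p below 0.05 (31.2% of all genes). Over all libraries 0 of the 86 passed, 76 had log2 fold changes below 0, and the median was -0.13. Of the 17 Myc targets outside the ribosome, 0 passed over all libraries. Without Control 2, Cad, Nme1, Hspd1, Eif4e and Fkbp4 were lower, where 5.72% of all genes were lower. Of 13 genes of the Myc network 0 passed in edgeR with or without Control 2. Without it 5 of the 13 had an unadjusted p below 0.05, a share near the 31.2% of all genes. Of 22 cell cycle genes, Top2a and Aurkb were higher without Control 2, a share near the 8.25% of all genes that were higher. In that setting 14 of the 22 had log2 fold changes below 0, with a median of -0.017. Over all libraries 0 passed and 21 had log2 fold changes above 0, with a median of 0.14.

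**Figure D5:**
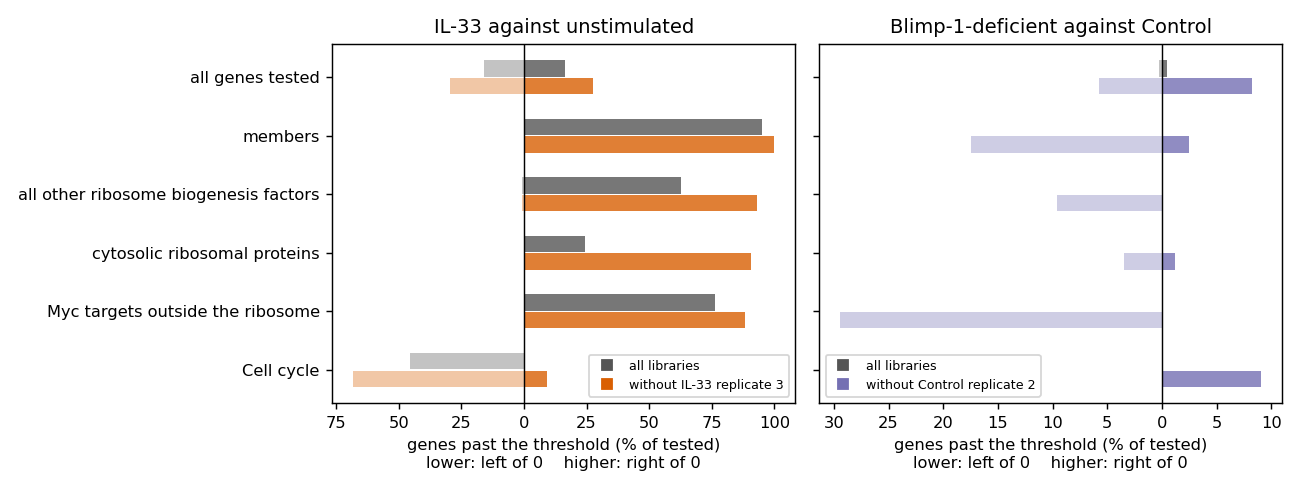
Share of the genes tested in each list that passed an adjusted p below 0.05, lower to the left of 0 and higher to the right, for IL-33 (left panel) and for Blimp-1 deficiency (right panel), over all libraries (dark grey) and without the library that stood apart (coloured). After IL-33, 38 of the 40 genes (members) rose over all libraries, and without Control 2, 7 of 40 were lower in Blimp-1-deficient cells.

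Marker levels in the Blimp-1 experiment overlapped between groups for myeloid cells, at 29.6 to 122 CPM (Control) and 32.6 to 107 CPM (Blimp-1-deficient), although without Control 2, 2 of the 7 myeloid markers tested were called higher (8.25% of all genes). The 7 epithelial and stromal markers, with Col1a1 as the highest gene, summed to 167, 3545 and 286 CPM in Controls 1 to 3 and to 417, 453 and 622 CPM in Blimp-1-deficient replicates 1 to 3. The 10 T cell markers summed to 52.4, 54.8 and 43.1 CPM in Controls 1 to 3 and to 54.0, 55.9 and 62.6 CPM in Blimp-1-deficient replicates 1 to 3. Without Control 2 all Blimp-1-deficient libraries thus lay above the Controls in both lists, in the same comparison in which 7 of the 40 genes were lower. Of the 10 T cell markers 1 was called higher there (8.25% of all genes), with a median log2 fold change of -0.068. Of the 5 epithelial and stromal markers tested, 4 had log2 fold changes above 0 and 1 was called higher (8.25% of all genes). The median of these 5 was 1.15, against 0.10 over all libraries. B cell markers summed to at most 23.3 CPM, NK cell markers to at most 3.41 CPM, and mast cell and basophil markers to at most 1.27 CPM in any library of the experiment. Of 3 NK cell markers tested, 1 was called lower over all libraries (0.306% of all genes) and 1 without Control 2 (5.72% of all genes). What part these other cells had in the results was not tested. Across the 40 genes, the log2 fold changes after IL-33 and those in Blimp-1-deficient cells without Control 2 had a Pearson correlation of 0.27 and a Spearman correlation of 0.27, over genes that share their libraries and are not independent.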

How the data were processed

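RNA-seq of sorted lung ILC2s was measured in 14 libraries. Per the labels and methods, the authors made cDNA with the SMART-seq v4 kit, removed adaptors (cutadapt), mapped to GRCm38 (HISAT2) and deposited the raw counts that Subread gave per gene. They normalized these to TPM, and the authors deposited those TPM as a separate table. The strand setting is not given in the sources used here. Of the columns of values per sample, 0 were left unused.

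Counts were tested with edgeR 4.0.16 in R 4.3.3 (TMM, filterByExpr, quasi-likelihood, two-sided), each experiment alone, and p-values were adjusted by Benjamini-Hochberg over all genes tested, with a threshold of 0.05. CPM are TMM-normalized counts scaled to 1000000. The labels and design text give 1 mouse per library, whereas figure legends of the study describe pooled animals, so the p-values measure the spread between sorted samples. TPM served for levels between genes and, with limma 3.58.1, as an alternative. DESeq2 1.42.0, voom with sample weights, other scalings and filters, a replicate block and leaving out each library were the other alternatives. In Python 3.11, pandas 2.3.3 and matplotlib 3.10.9 were used. The fit was tested on simulated data: of 100 genes changed by a log2 size of 1, it recovered 57 in the stimulation and 40 in the Blimp-1 design, and of 100 changed by a size of 2, 81 and 93.

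Depth was 10470125 to 32849428 counts in the stimulation and 13570188 to 76448945 in the Blimp-1 experiment, so 3 counts correspond to 0.0859 to 0.296 CPM and to 0.031 to 0.731 CPM. Named genes were Myc, and in each role the highest in TPM and the largest and smallest fold change, the 3 calls most moved by leaving out the library that stood apart, and the 3 largest rises and falls past the threshold at a mean of at least 5 CPM on other pathway lists. Members and genes named besides these were chosen after their values were seen. The members and lists were chosen with earlier results of these data known. Shared 75-base stretches and overlaps come from GENCODE M21 (GRCm38), and promoters from RefSeq (GRCm38.p6). Replicate numbers were not used to pair libraries, since the correlation of same-numbered libraries was below 0.1 in some pairs.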

Additional observations from a re-analysis of the deposited data

Results flagged for a closer look

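Among 42 groups of 4 libraries in the stimulation experiment, covering the summed level and the 20 named genes, 3 held a library far from the others by Dixon's ratio, the gap to the nearest library divided by the range of the group. Chance flags about 1 in 20 groups. In Polr1a, IL-33 stimulated replicate 3 lay at 96.2 CPM against 155 to 157 CPM in the other stimulated libraries, a ratio of 0.961. In Fbl the same library lay at 91.9 CPM against 152 to 163 CPM, a ratio of 0.848. In Nhp2, unstimulated replicate 4 lay at 54.7 CPM against 62.3 to 63.3 CPM, a ratio of 0.886. IL-33 stimulated replicate 3 held 4.12% of its counts on rRNA-derived loci and the fewest counts of its experiment, and the part of this in its low values was not tested.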

How the results depend on the processing

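In the stimulation experiment no alternative turned the median of the 40 genes below 0 or called a gene lower. With limma on log2(TPM + 1), log2(TPM + 0.1) and log2(TPM + 1) rescaled without the rRNA-derived loci, 19, 19 and 24 genes rose. Their median log2 fold changes were 0.50, 0.51 and 0.52, and Polr1a turned to -0.060, -0.063 and -0.046. The median of all genes was -0.25, -0.29 and -0.23 on those scales. The other alternatives called 32 to 40 genes higher. Of the named genes Myc, Npm1, Ncl, Nhp2, Polr1b, Rrp9 and Nop16 rose under every alternative run, Fbl missed the threshold in 10 of 19, Ubtf in 7, Ddx10, Imp3 and Pes1 in 3 each and Ddx21 in 2, and Polr1c passed it in 8.

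In the Blimp-1 experiment the signs moved with scalings that shift all genes. The median of the 40 genes was 0.33 with library size alone and 1.54, 1.77 and 0.48 on log2(TPM + 1), log2(TPM + 0.1) and the rescaled TPM, where all genes had medians of 0.45, 1.28, 1.69 and 0.42. Signs on these scales carry that shift. Relative to the median of all genes, Polr1a and Heatr1 were below it and Nop14 and Nop56 above it in all 17 alternatives, and Nhp2 and Noc2l below it in 16, while Myc was below it in 8 and above it in 9. The smallest distances from that median were -0.20 for Polr1a, -0.021 for Heatr1, 0.28 for Nop14 and 0.010 for Nop56. All alternatives reuse the same libraries and are not independent. With library size alone the log2 fold changes that changed sign were Myc 0.48, Polr1c 0.36, Polr1a 0.12, Nhp2 0.21, Mybbp1a 0.38, Imp3 0.41, Heatr1 0.19, Ddx21 0.28, Noc2l 0.28 and Ltv1 0.31. On log2(TPM + 1) they were Myc 1.67, Polr1c 1.53, Polr1a 1.08, Nhp2 1.52, Mybbp1a 1.66, Imp3 1.67, Heatr1 1.26, Ddx21 1.69, Noc2l 1.53 and Ltv1 1.54. On log2(TPM + 0.1) they were Myc 1.74, Polr1c 1.79, Polr1a 1.41, Nhp2 1.60, Mybbp1a 1.77, Imp3 1.77, Heatr1 1.46, Ddx21 1.81, Noc2l 1.65 and Ltv1 1.83. On the rescaled TPM they were Myc 0.43, Polr1c 0.50, Polr1a 0.14, Nhp2 0.29, Mybbp1a 0.46, Imp3 0.46, Heatr1 0.17, Ddx21 0.50, Noc2l 0.34 and Ltv1 0.54. With no filter on low counts they were Myc 0.010, Polr1c 0.014, Mybbp1a 0.00863, Imp3 0.014 and Ltv1 0.00413. With DESeq2 they were Polr1c 0.000292 and Ltv1 0.00589. Voom with sample weights called 1 gene lower and gave Myc 0.021, Npm1 -0.13, Nolc1 -0.087 and Gnl3 -0.15. The cause was not tested.

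Leaving out each library in turn gave 0 to 1 genes higher and 0 to 7 lower, both of the higher counts without Control 2, when 11 other ribosome biogenesis factors were also lower. Named genes that changed sign ranged over Myc -0.10 to 0.033, Polr1c -0.18 to 0.12, Npm1 -0.26 to 0.30, Nolc1 -0.13 to 0.36, Mybbp1a -0.14 to 0.14, Imp3 -0.095 to 0.049, Ddx21 -0.28 to 0.18, Gnl3 -0.17 to 0.34 and Ltv1 -0.25 to 0.18.

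With the replicate block the stimulation experiment gave 35 genes higher and a median of 0.85. The Blimp-1 experiment gave 0 higher and 0 lower, with Polr1c 0.025, Ddx21 0.029 and Ltv1 0.059 changing sign. Same-numbered libraries had deviations correlated at -0.14, 0.22, 0.28 and 0.18 in the stimulation and -0.13, -0.13 and 0.12 in the Blimp-1 experiment. These values do not show that the numbers pair the libraries, and whether they do is not known.

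With 4 or 3 libraries a group and 1 library in each experiment standing apart, small changes are the least certain. The simulated fit recovered 40 of 100 genes changed by a log2 size of 1 in the Blimp-1 experiment, and over all libraries the log2 fold changes of the 40 genes in edgeR were all smaller than that size.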
